A study of Homo sapiens with 2 samples.

Results

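The glucose and fructose transporters described here are 7 genes of the SLC2A family, SLC2A1, SLC2A3, SLC2A5, SLC2A6, SLC2A8, SLC2A10 and SLC2A13, together with KHK, which encodes the enzyme that phosphorylates fructose. They were taken by symbol as all probe sets that the array annotation assigns to 1 of these symbols and to no other gene. This gave 20 probe sets for 8 genes, of 41091 probe sets for 19775 genes in all. The list was chosen by gene family with signals of this comparison in view, above all that of SLC2A5, so the values below describe the arrays and test nothing. MM.1S cells grown in the presence of plasmacytoid dendritic cells (pDCs), a cell type known for its interferon output, were measured on 1 Affymetrix HG-U133 Plus 2.0 array. MM.1S cells cultured alone were measured on another. MM.1S is a human multiple myeloma line, and both samples come from this 1 line, so other myelomas are not represented. The study asked how pDCs alter myeloma cells in growth and in response to drugs. The sources used here do not give the origin of the pDCs, the culture time or whether pDCs were removed before RNA extraction.

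Proteins of the SLC2A family, the GLUTs, are membrane carriers that let hexoses pass down their gradient, and they differ in substrate and in location. GLUT1 and GLUT3 bring glucose into most dividing cells, GLUT5 carries fructose, and others reside on inner membranes or carry related compounds such as myo-inositol. Myeloma cells are known for high glucose use, to which GLUT1, GLUT4, GLUT8 and GLUT11 have been linked.

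SLC2A5, the fructose carrier GLUT5, had a signal 10.0-fold lower with pDCs by its brightest probe set, but nearly level on another probe set measured on both arrays (log2 ratio -0.21). SLC2A13, the proton-coupled myo-inositol carrier HMIT, was 2.04-fold higher on the 1 probe set that could be measured. SLC2A1 and KHK had nearly the same signal on both arrays. SLC2A3 had probe sets on both sides of equality, and so did SLC2A8, with its higher probe set just under 2-fold. SLC2A6 and SLC2A10 had a signal above the median of the array only with pDCs. Each group had 1 array (n = 1), so no value has a replicate error, no test is possible, and "higher" and "lower" describe these arrays only.

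The values are MAS5 signals, linear intensities per probe set. Each array's median signal was used as the floor, below which a probe set was taken as not measured. It was 115.9 with pDCs and 124.0 alone. A probe set below the floor on 1 array gives only a bound, written "at least", and one below it on both arrays gives no ratio. Of the 20 probe sets, 9 were above the floor on both arrays, 3 only with pDCs, 1 only alone, and 7 on neither. Every one of the 8 genes had a probe set above the floor on at least 1 array. The control probe sets of ACTB differed along the transcript, with a 3' to 5' signal ratio of 8.09 with pDCs and 19.5 alone, and those of GAPDH had 2.46 and 3.07. The part of this difference in RNA quality in the ratios below was not tested.

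**Figure D1:**
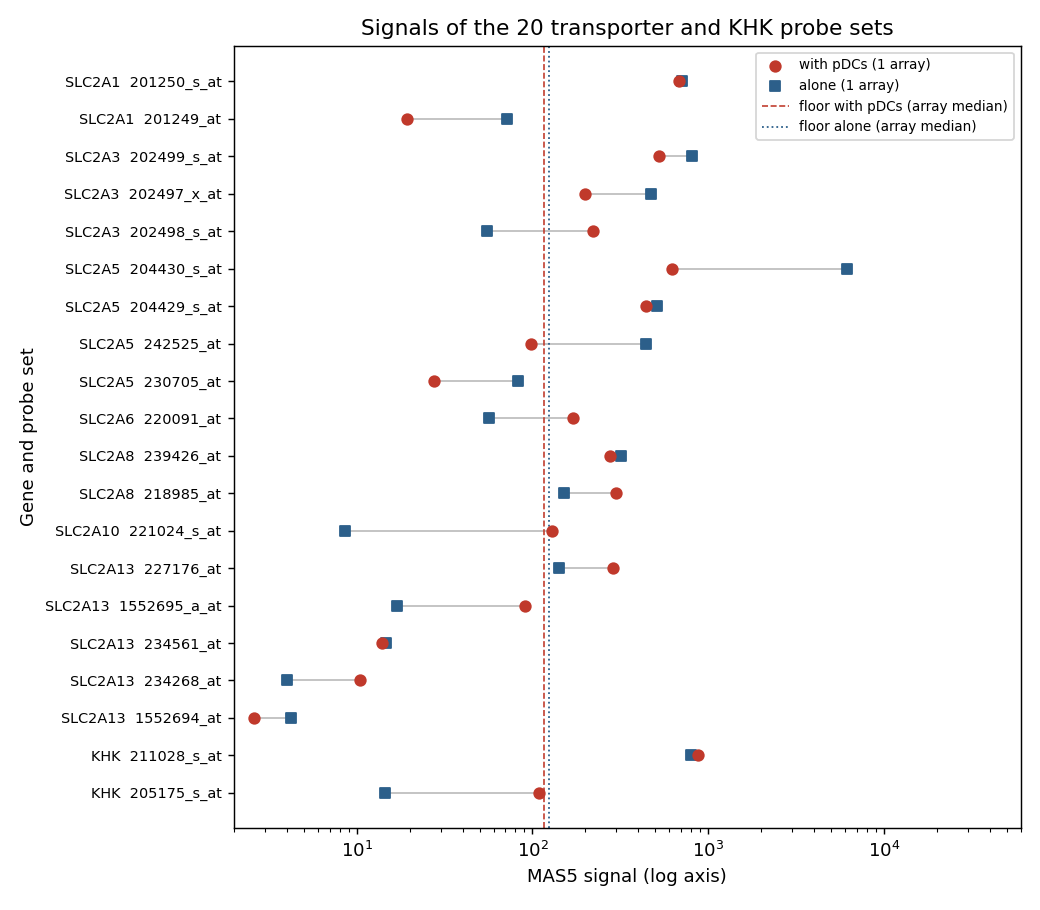
MAS5 signal (log axis) of each of the 20 probe sets, 1 row per probe set, with a circle for the array with pDCs and a square for the array of MM.1S alone. The vertical lines are the array medians used as floors, 115.9 with pDCs and 124.0 alone; SLC2A5 probe set 204430_s_at shows the widest gap among probe sets above both lines.

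Of the 13 probe sets above the floor on at least 1 array, 3 were at least 2-fold lower with pDCs and 1 was at least 2-fold higher. Among all 25795 such probe sets, 4.67% were at least 2-fold lower and 4.19% at least 2-fold higher, and since the genes were listed from this contrast nothing is read from the comparison. The 9 probe sets measured on both arrays had a median log2 ratio (with pDCs minus alone) of -0.21, with 6 negative and 3 positive. The 19273 probe sets measured on both arrays had a median of 0 and an SD of 0.549. By the brightest probe set of each gene, 1 of the 8 genes was at least 2-fold lower (SLC2A5) and 1 at least 2-fold higher (SLC2A13). Over 14408 genes counted the same way, the shares were 4.51% and 3.16%.

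**Figure D2:**
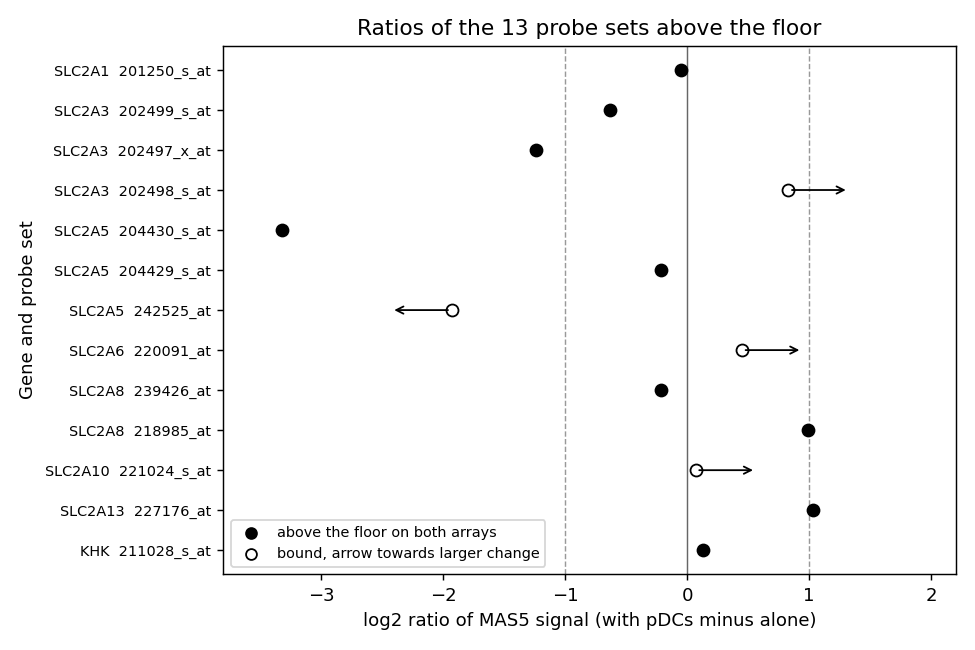
Log2 ratio of MAS5 signal (with pDCs minus alone) of the 13 probe sets above the floor on at least 1 array. Filled points were above the floor on both arrays, open points are bounds with an arrow towards a larger change, and dashed lines mark 2-fold; probe sets of SLC2A3, SLC2A5 and SLC2A8 lie apart from each other.

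The fructose carrier showed the widest difference between the arrays. SLC2A5 lies on chromosome 1 (chr1:9035106-9094195, GRCh38.p14) and is known in the gut epithelium, and in microglia among immune cells. Its probe set 204430_s_at had a signal of 618.8 with pDCs, against 6193.3 alone, a log2 ratio of -3.32. On the array with pDCs this signal stood at percentile 80.2 of all probe sets, and on the array of MM.1S alone at percentile 97.1. The probe set was thus well above the floor on both arrays. Of 11522 genes measured on both arrays by their brightest probe set, none had a lower ratio. Probe set 242525_at had 98.46 with pDCs, which is below the floor, against 442.4 alone, which makes it at least 3.82-fold lower. Probe set 230705_at was below the floor on both arrays, at 27.52 with pDCs and 82.59 alone.

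The remaining SLC2A5 probe set, 204429_s_at, did not show the difference. It had 443.3 with pDCs, against 512.5 alone, a log2 ratio of -0.21. The 2 SLC2A5 probe sets measured on both arrays were therefore 3.11 log2 units apart in their ratios. Over 4844 genes with at least 2 probe sets measured on both arrays, the median range was 0.56 and the 95th percentile was 1.56. Only 3 of these genes, SLC2A5 included, had a range as wide (0.0619%). The 204430_s_at probe set was designed from a RefSeq mRNA and the other 3 from other sequences. The sources used here do not say which part of the transcript each one covers. Which ratio stands for which SLC2A5 transcript therefore cannot be told. Both 204430_s_at and 204429_s_at are of the s_at class, which can bind more than 1 transcript, so either value may include another transcript.

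**Figure D3:**
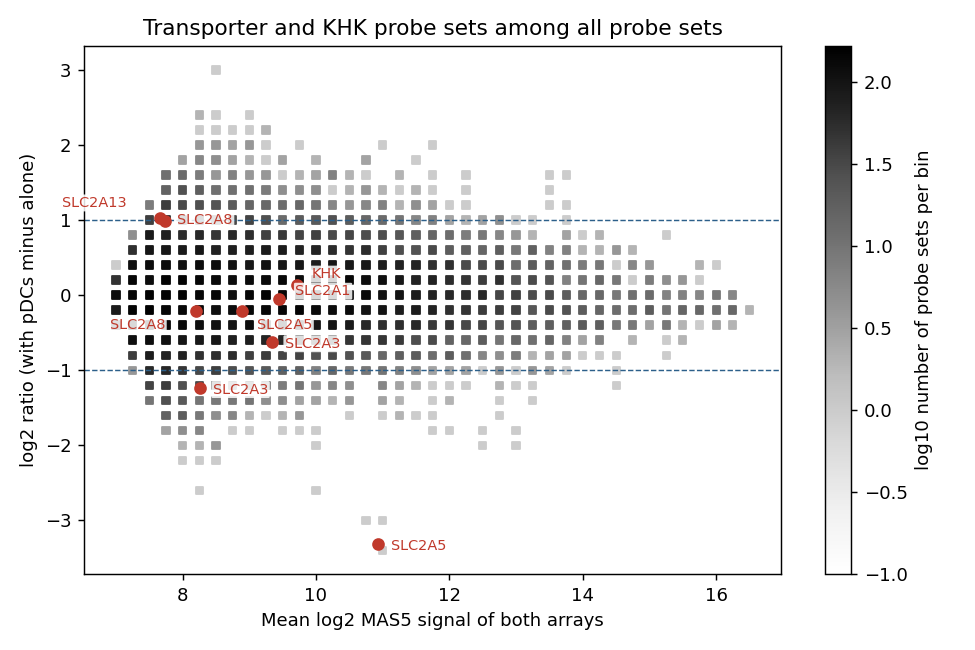
Log2 ratio (with pDCs minus alone) against mean log2 MAS5 signal for the 19273 probe sets measured on both arrays, as grey squares shaded by the number of probe sets per bin, with the 9 transporter and KHK probe sets in red. Dashed lines mark 2-fold; 1 SLC2A5 point lies at the lower edge of all probe sets at -3.32, and the other at -0.21 lies in the middle.

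Markers of other cell types were read beside SLC2A5, because the arrays measure RNA in bulk, where fewer cells of a type and less RNA per cell cannot be told apart. Of 9 monocyte and macrophage markers measured, 7 passed the floor on an array, but only 1 did on both. Their summed signal was 590.6 with pDCs and 1636.3 alone, and LYZ, which encodes lysozyme, accounted for most of the gap with 16.99 with pDCs against 711.2 alone. S100A8, a calcium-binding protein of myeloid cells, had 116.4 with pDCs, against 182.4 alone. CSF1R, the growth factor receptor of macrophages, differed little (120.9 with pDCs, 123.1 alone). CD14, the monocyte receptor for endotoxin, had 26.92 with pDCs against 139.1 alone, at least 1.2-fold lower. FCN1 and CD163 went the other way, with 122.6 and 81.65 with pDCs, against 62.56 and 23.1 alone. Neither gives a ratio, since CD163 was below the floor on both arrays and FCN1 has no usable bound. Of 6 platelet markers, 4 were above the floor on at least 1 array, with a summed signal of 697.0 with pDCs and 1671.4 alone. The integrin chain gene ITGA2B and the adhesion receptor gene GP1BA had 208.1 and 173.6 with pDCs, against 374.0 and 258.3 alone. PPBP, a platelet chemokine, accounted for most of the gap in this sum, with 30.59 with pDCs against 957.0 alone. The tubulin gene TUBB1 went the other way, with 205.1 with pDCs against 19.72 alone. Neutrophil markers (1 of 7 above the floor) summed to 400.0 with pDCs and 479.7 alone. CSF3R and FCGR3B had 91.43 and 76.35 with pDCs, against 217.1 and 108.7 alone. MPO, CEACAM8, S100A12 and ELANE were higher with pDCs but below the floor on both arrays, with MPO at 81.87 with pDCs against 21.29 alone. No marker of these lists has a signal of exactly 0. The sums of these lists, which include signals below the floor, were lower with pDCs, as was the SLC2A5 signal. So were the sums of the pDC, plasma cell and B cell markers given below. The sum over all genes was lower too (29955708.2 with pDCs, 31276714.3 alone). Those of the erythroid, T cell and myeloid dendritic cell markers were higher. The part of these cell types in the SLC2A5 signal was not tested.

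The 10 pDC markers summed to 5917 with pDCs and 7742.6 alone, with 7 of them above the floor on an array, and CLEC4C and IL3RA, which define pDCs, were below the floor on both arrays. LILRA4, another gene that marks pDCs, had 306.5 with pDCs and 255.7 alone. The transcription factors TCF4 and IRF7 had 3568.7 and 1072.6 with pDCs, against 4400.4 and 1303.4 alone, on their brightest probe sets. The 7 other TCF4 probe sets, all measured on both arrays, had log2 ratios between -0.19 and 1.07. PTCRA had 509.8 with pDCs, against 711.1 alone on its brightest probe set, but a log2 ratio of 1.04 on another. By the brightest probe set, 2 of the 10 were at least 2-fold lower with pDCs (GZMB and BCL11A) and 0 were 2-fold higher. Over 14408 genes above the floor on an array, the shares were 4.51% and 3.16%. The 3 pDC markers below the floor on both arrays could not be counted. Of these, CLEC4C had 61.39 with pDCs and 6.434 alone, SPIB 65.11 and 24.47, and IL3RA 28.97 and 21.1. The 8 plasma cell markers were all above the floor on both arrays, with a sum of 135396.3 with pDCs and 155859.9 alone. By the brightest probe set, 5 of the 8 were lower with pDCs and 3 higher. XBP1 and MZB1, genes of the secretory plasma cell, had 31891.1 and 21765.6 with pDCs, against 44501.0 and 34739.6 alone. The surface marker SDC1 had 10177.0 with pDCs and 10503.3 alone, and TNFRSF17 had 31100.5 with pDCs, against 22655.6 alone. Erythroid markers, where SLC2A1 is also abundant, had 1 of 4 above the floor. That was the beta-globin gene HBB, with 2042.2 with pDCs and 1808.7 alone, and SLC4A1, the anion exchanger of red cells, had 100.6 and 77.73. The 5 T cell markers summed to 352.3 with pDCs and 335.5 alone (2 above the floor on an array, CD3G at 150.4 and 124.3, CD247 at 123.5 and 54.45). The 4 B cell markers measured summed to 778.8 and 1037.3 (CD22 at 285.8 and 360.1, CD79A at 232.0 and 340.5). MS4A1, of the same list, went the other way, at 226.3 with pDCs and 130.6 alone. The 4 myeloid dendritic cell markers measured summed to 459.9 and 438.9 (FCER1A at 168.5 and 322.2, XCR1 at 252.4 and 65.99).

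KHK, ketohexokinase, acts on the fructose that GLUT5 brings in. Its probe set 211028_s_at had 879.2 with pDCs, against 801.3 alone, a log2 ratio of 0.13. The other probe set, 205175_s_at, was below the floor on both arrays, at 108.7 with pDCs and 14.45 alone. KHK thus did not share the SLC2A5 difference on the probe set that could be measured. Of 6 other enzymes of fructose and polyol handling, 3 had a probe set with 1 symbol, all above the floor, and none was past 2-fold. Their median log2 ratio was -0.07, against -0.03 over all genes measured on both arrays. The xylulose reductase DCXR had 4149.0 with pDCs, against 5869.0 alone, and TKFC, which phosphorylates the glyceraldehyde made from fructose, had 743.6 with pDCs, against 778.4 alone, with a log2 ratio of -0.86 on its other probe set. The glycerate kinase GLYCTK had log2 ratios of 0.26 and -0.25 on its 2 probe sets.

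The main glucose carriers differed less. SLC2A1 (GLUT1, chr1:42925353-42958868) had 686.1 with pDCs, against 710.0 alone on probe set 201250_s_at, a log2 ratio of -0.05 that lies in the middle of all probe sets. Its other probe set, 201249_at, was below the floor on both arrays (19.37 with pDCs, 71.49 alone). SLC2A3 (GLUT3, chr12:7919230-7936187), a high-affinity carrier of neurons and leukocytes, had 522.4 with pDCs, against 808.0 alone on 202499_s_at, a log2 ratio of -0.63. Probe set 202497_x_at had 199.8 with pDCs, against 472.9 alone (log2 ratio -1.24, 2.37-fold lower). Probe set 202498_s_at went the other way, with 220.2 with pDCs against 55.35 alone, at least 1.78-fold higher. The 3 SLC2A3 probe sets therefore give no single direction. SLC2A14 is a close copy of SLC2A3 next to it on chromosome 12, and 2 further probe sets annotated to both genes were left out. The x_at and s_at classes can bind more than 1 transcript, so the SLC2A3 values may include SLC2A14.

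The carriers SLC2A8, SLC2A6 and SLC2A10 had no ratio or bound past 2-fold. SLC2A8, which encodes the intracellular carrier GLUT8, had 299.4 with pDCs, against 151.0 alone on 218985_at (1.98-fold higher, just under the 2-fold mark). Its other probe set, 239426_at, had 274.9 with pDCs, against 317.9 alone, a log2 ratio of -0.21. The SLC2A8 probe sets thus differed in direction, and 13.5% of genes had a range between probe sets as wide as theirs. SLC2A6 (GLUT6, a lysosomal carrier) had 169.2 with pDCs, against 56.5 alone, at least 1.37-fold higher. SLC2A10 (GLUT10, the gene mutated in arterial tortuosity syndrome) had 129.9 with pDCs, against 8.56 alone, but lies so close to the floor that the bound is only 1.05-fold. Each of these last genes has 1 probe set.

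SLC2A13 was just past 2-fold on the 1 of its 5 probe sets that was above the floor. Probe set 227176_at had 288.1 with pDCs, against 141.1 alone (log2 ratio 1.03). Of all probe sets measured on both arrays, 3.41% had a ratio as high or higher. The other 4 SLC2A13 probe sets were below the floor on both arrays, and the brightest of them, 1552695_a_at, had 90.3 with pDCs, against 16.98 alone. The signal of 141.1 is close to the floor of that array, and SLC2A13 was no longer 2-fold higher with a floor at the 70th percentile (log2 ratio 0). Of 6 other genes of myo-inositol uptake and synthesis, 5 passed the floor on an array and none was past 2-fold, with a median log2 ratio of 0.07. The sodium-coupled carrier SLC5A3 had 937.9 with pDCs, against 890.2 alone, and the inositol phosphatases IMPA1 and IMPA2 had log2 ratios of -0.32 and 0.16.

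The stretches upstream of 3 of these genes are shown because SLC2A5 had the largest difference, SLC2A1 nearly none and SLC2A13 the opposite direction. RefSeq promoter sequences of GRCh38.p14 matched 6 of the 8 genes. Each line gives the 250 bases before the start used in that table, on the minus strand for all 3 genes, with capitals for motifs searched on both strands. These are TATAAA for the core promoter element bound by TBP (TATA box), CCAAT for the element of NF-Y factors (the CCAAT box), GGGCGG for the element of SP factors (GC box), CACGTG for the element of MYC and MLX factors (E-box) and ACGTG for the core of hypoxia response elements, which every E-box contains. They cover chr1:9069636-9069885 for SLC2A5, chr1:42958869-42959118 for SLC2A1 and chr12:40106082-40106331 for SLC2A13.
SLC2A5: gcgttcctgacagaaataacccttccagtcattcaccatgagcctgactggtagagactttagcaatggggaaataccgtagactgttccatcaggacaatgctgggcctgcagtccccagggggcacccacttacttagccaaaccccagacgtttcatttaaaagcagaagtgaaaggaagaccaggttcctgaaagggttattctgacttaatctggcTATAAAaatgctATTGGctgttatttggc
SLC2A1: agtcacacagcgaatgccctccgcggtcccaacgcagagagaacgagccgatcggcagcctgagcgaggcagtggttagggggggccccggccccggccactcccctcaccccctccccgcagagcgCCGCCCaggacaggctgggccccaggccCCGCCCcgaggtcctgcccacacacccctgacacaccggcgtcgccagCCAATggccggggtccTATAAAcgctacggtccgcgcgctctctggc
SLC2A13: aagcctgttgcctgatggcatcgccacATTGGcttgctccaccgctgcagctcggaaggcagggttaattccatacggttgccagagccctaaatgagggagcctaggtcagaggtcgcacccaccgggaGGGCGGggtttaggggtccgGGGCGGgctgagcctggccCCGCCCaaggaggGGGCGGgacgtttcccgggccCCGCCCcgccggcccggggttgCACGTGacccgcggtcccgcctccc
The SLC2A5 stretch had a GC content of 46.8%, SLC2A1 72.4% and SLC2A13 70%, and the median over 35116 promoters was 58.0%. SLC2A5 had 1 TATA box, beginning 29 bases before the start, and 1 CCAAT box, with none of the other motifs. SLC2A1 had 1 TATA box, beginning 31 bases before the start, 1 CCAAT box and 2 GC boxes. SLC2A13 had no TATA box, 1 CCAAT box, 5 GC boxes and 1 E-box. Of all promoters, 10.7% held the TATA box, 32.0% the CCAAT box, 42.6% the GC box, 6.34% the E-box and 18.5% the hypoxia response core. The SLC2A5 start in that table lies 24560 bases inside the annotated gene, which has further starts upstream, and which start MM.1S cells use was not measured.

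The rest of the SLC2A family was compared to see whether other carriers differed too. Of 7 other family genes, 5 had a probe set with 1 symbol, and 3 passed the floor. SLC2A9, which encodes the urate carrier GLUT9, was 2.02-fold higher by its brighter probe set (312.4 with pDCs, 154.5 alone), while 240223_at, below the floor with pDCs, was at least 1.12-fold lower. SLC2A11 (GLUT11) had log2 ratios of 0.31, 0.35 and 1.39 on its 3 probe sets, all measured on both arrays. SLC2A12 had 176.6 with pDCs, against 20.68 alone, at least 1.42-fold higher. SLC2A4, the insulin-responsive GLUT4, was below the floor on both arrays (20.47 with pDCs, 56.23 alone), and so was the liver carrier SLC2A2. By the brightest probe set, no family gene besides SLC2A5 was 2-fold lower. Of 6 sodium-coupled and SWEET carriers, 4 were above the floor and none was past 2-fold. SLC50A1 had 855.3 with pDCs, against 1074.6 alone, and SLC5A2, the renal carrier SGLT2, had 182.8 with pDCs, against 166.4 alone.

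Genes that act on sugar once it has entered were mixed. Of 7 hexose phosphorylation genes measured, 5 passed the floor on an array, and the median log2 ratio of the 4 measured on both arrays was 0.25. By the brightest probe set, HK1 was the one past 2-fold, with 575.2 with pDCs against 254.5 alone. HK2, the hexokinase of many tumours, had 2267.5 with pDCs, against 2520.6 alone. ADPGK, an ADP-dependent glucokinase, had a log2 ratio of 0.66 on its brightest probe set and 1.7, past 2-fold, on the other, and G6PC3, a glucose-6-phosphatase, had -0.98 on its brighter probe set and 0.37 on the other. The lactate carriers and their partners (4 of 6 measured, none past 2-fold by brightest probe set) had a median of 0.51 over 3 genes. Of these, EMB and BSG, which bring the lactate carriers to the cell surface, had 4583.7 and 2002.2 with pDCs, against 3229.6 and 1719.9 alone. A dimmer EMB probe set had 358.4 with pDCs, against 23.53 alone, at least 2.89-fold higher. The carrier SLC16A7, below the floor with pDCs, went the other way by its brightest probe set (85.26 with pDCs, 189.5 alone, at least 1.63-fold lower). The carriers SLC16A1 and SLC16A3 were not among the genes measured.

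**Figure D4:**
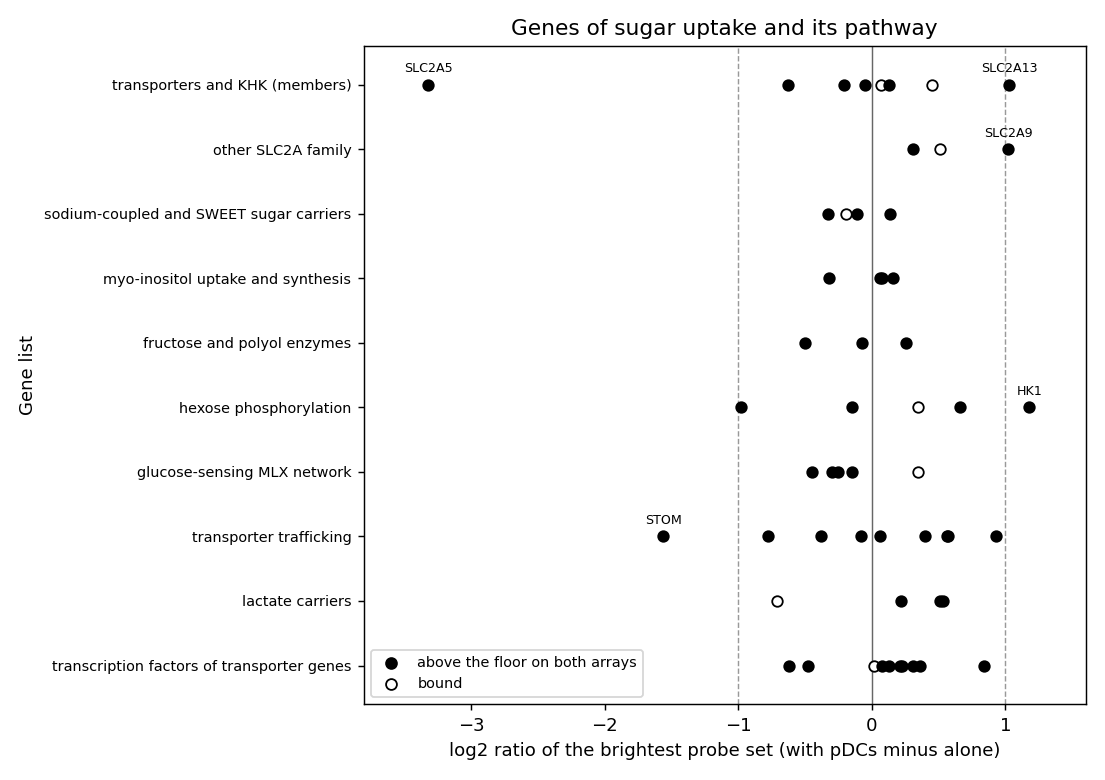
Log2 ratio (with pDCs minus alone) of the brightest probe set of each gene above the floor on at least 1 array, 1 row per gene list; genes with no usable bound are not drawn. Filled points were measured on both arrays, open points are bounds, dashed lines mark 2-fold, and the named genes past it are SLC2A5 and STOM on the lower side and SLC2A13, SLC2A9 and HK1 on the higher side.

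Genes that sense glucose or place its carriers in the membrane stayed mostly within 2-fold. In the MLX network, which switches on genes when glucose is plentiful, all 4 genes measured on both arrays were negative, with a median log2 ratio of -0.28. Among all genes measured on both arrays, 6031 of 11522 were negative. MLXIPL, also of this network, went the other way, with 158.0 with pDCs against 20.59 alone, at least 1.27-fold higher. TXNIP, which promotes removal of GLUT1 from the surface, had 5897.8 with pDCs, against 8028.8 alone on its brightest probe set, but a log2 ratio of 0.75 on another. A further TXNIP probe set had 153.9 with pDCs, against 61.66 alone, at least 1.24-fold higher. MLX had 2964.6 with pDCs, against 3517.8 alone, and was negative on all 4 of its probe sets measured on both arrays. Of 9 carrier trafficking genes measured, STOM alone was past 2-fold on its brightest probe set. STOM encodes stomatin, a membrane protein that binds GLUT1, and had 835.8 with pDCs, against 2458.8 alone (log2 ratio -1.56). Its second probe set had 552.1 with pDCs, against 428.6 alone (0.37), so STOM also split between probe sets, by 1.92 log2 units. The retromer genes VPS35, VPS26A and VPS29, which return carriers from endosomes, had log2 ratios of 0.40, -0.08 and 0.06 on their brightest probe sets. A dimmer VPS35 probe set was at least 2.06-fold higher with pDCs. TBC1D1, which controls GLUT4 vesicles, had a log2 ratio of -0.38 on its brightest probe set. Of its dimmer ones measured on both arrays, 1 had 430.0 with pDCs, against 146.9 alone, and the others had ratios of -0.45 and -0.28.

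The 4 genes with the log2 ratio nearest to that of SLC2A5 were sought among 8529 other genes measured on both arrays with a bright signal on 1 of them. Likeness here rests on 1 ratio from 2 arrays. DNAAF1, an assembly factor of ciliary dynein, was nearest, 0.28 log2 units away, with 700.0 with pDCs and 5750.0 alone. IFFO2 and TEX19 followed at ratios of -2.67 and -2.53. ENPP2, which encodes the lysophospholipase D autotaxin, had -2.21, already 1.12 units away.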

How the data were processed

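The authors deposited 1 linear intensity for each probe set, and the submitters' processing notes name MAS5. The sources used here give neither its version nor detection calls. The mean after trimming 2% at each end was 500.1 on both arrays, so both share a scale, and a shift shared by all transcripts cannot be seen. Groups were taken from the sample titles.

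Of 54675 probe sets, 41091 had 1 gene symbol in the platform annotation, 1801 several, 11721 none, and 62 were controls. Symbols were checked by gene ID against RefSeq (41037 matched, 0 updated). Only probe sets with 1 symbol were used. A gene's brightest probe set is the one with the highest mean log2 signal. Genes without one were not analysed here.

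Signals below each array's median were set to it. A difference of 2-fold is a threshold of size, not a test. The number of arrays limits the precision. All probe sets of the 8 genes are named. Of the other lists, the genes past 2-fold or, with none, the 2 brightest are named, and the 2 brightest of each marker list. Genes outside this rule were named after their values were seen, as were the motifs. The genes and lists were chosen with earlier results of these data known. Alternatives were median centring, quantile normalization, loess (span 0.3), floors at the 30th or 70th percentile or none, thresholds of 1.5-fold and 3-fold, leaving out x_at and s_at probe sets, and the mean over probe sets. The calculations were tested on simulated data. Python 3.11.15, numpy 2.4.6, pandas 2.3.3, statsmodels 0.14.6 and matplotlib 3.10.9 were used.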

Additional observations from a re-analysis of the deposited data

How the results depend on the processing

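SLC2A5 204430_s_at stayed at least 2-fold lower with pDCs under each scaling and each floor tried. No ratio of a probe set of the 8 genes that was past 2-fold changed sign under these settings. The number of the probe sets at least 2-fold higher, 1 as reported, was 2 after median centring, quantile normalization or loess (SLC2A8 218985_at crossed 2-fold), 6 with a floor at the 30th percentile, 7 with none, 0 at the 70th, 3 at 1.5-fold and 0 at 3-fold. The number at least 2-fold lower, 3 as reported, was 1 with the 70th percentile floor, 5 with none and 1 without x_at and s_at probe sets. By gene, those higher, 1 as reported, were 3 with the 30th percentile floor or none, and 0 with the 70th or at 3-fold, and those lower were 2 at 1.5-fold. Over all probe sets, 3706, 394 and 6314 were higher and 4262, 296 and 6892 lower with floors at the 30th percentile, the 70th and none. Without x_at and s_at probe sets, 632 were higher and 798 lower, at 1.5-fold 3574 and 3926, and at 3-fold 144 and 158. The median of the transporters and KHK, -0.13 by brightest probe set, became -0.34 with the 70th percentile floor and 0.41 without x_at and s_at probe sets, which removes the SLC2A5 probe set with the widest difference. Medians that moved by over 0.2 were hexose phosphorylation (0.66 with the 30th percentile floor, -0.15 with the 70th, with none, or without x_at and s_at), other SLC2A genes (0.31 with the 70th or none, 0.23 with the mean over probe sets), sodium-coupled and SWEET carriers (-0.33 with the 70th, 0.12 with the mean), fructose and polyol enzymes (-0.28 without x_at and s_at, -0.46 with the mean), myo-inositol genes (-0.16 with the mean) and transcription factors (0.01 with the mean). Fewer genes enter a median under a higher floor or with fewer probe sets; otherwise the cause was not tested. No paired analysis was possible because each group has 1 array.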

Other observations

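Transcription factors known to act on GLUT genes were a further list. Of 11 genes, 10 were measured and passed the floor on an array, and none was past 2-fold by its brightest probe set, with a median log2 ratio of 0.21 over 9 measured on both arrays, 7 positive and 2 negative. HIF1A, the hypoxia factor that raises SLC2A1 and SLC2A3, had 5056.6 with pDCs and 4378.7 alone, and SP3 had 4064.5 with pDCs and 3721.7 alone. MYC had 3975.1 with pDCs and 3382.9 alone. A dimmer probe set of CREB1, a cyclic AMP-responsive factor, had 415.8 with pDCs, against 114.0 alone, at least 3.35-fold higher. The other CREB1 probe sets, all measured on both arrays, had log2 ratios between -0.05 and 0.84.

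Genes around SLC2A5 were read by position, a choice made after its value was seen. Within 500 kb on either side, 11 other genes had a probe set, of which 7 were measured on both arrays. These 7 had log2 ratios between -1.10 and 0.76 and a median of 0.01, which leaves out 2 genes with only a bound. A further 2 genes were below the floor on both arrays. With the bounds, 2 genes were at least 2-fold lower with pDCs and 0 at least 2-fold higher. Over 14408 genes the shares were 4.51% and 3.16%. The probe set annotated to MIR34A (arrays of this kind do not read mature microRNAs) was past 2-fold lower (189.2 with pDCs, 405.1 alone). GPR157, a G protein-coupled receptor gene, had 32.57 with pDCs, against 243.3 alone, at least 2.1-fold lower. CA6 had 34.3 with pDCs, against 162.3 alone, at least 1.4-fold lower. H6PD, which oxidises glucose 6-phosphate in the endoplasmic reticulum, had 399.6 with pDCs and 236.1 alone, and the glycolytic enzyme ENO1 had 13656.3 with pDCs and 10340.3 alone.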
